A study of Mus musculus with 4 samples.

Results

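Of the 12885 SCL peaks called in FLK1+ mesoderm, 23 had a transcription start site (TSS) of an SCL complex partner gene as the nearest protein-coding TSS. The partner genes considered were Lmo2 and Lmo4, Ldb1 and Ldb2, the E-protein genes Tcf3, Tcf4 and Tcf12, and the Id inhibitor genes Id1, Id2 and Id3. A peak belonged to the gene with the TSS closest to its summit, the base where the most ChIP fragments stacked, and enrichment had no part in the choice. Chromatin immunoprecipitation (ChIP) was performed with an in-house rabbit anti-serum against SCL on cells derived from wild-type J1 embryonic stem (ES) cells. Their strain is given as C57Bl/6 X Sv129 and was not checked. The ES cells had been differentiated into embryoid bodies (EBs) for 3.5 days, and the cells used are labelled FLK1+ mesoderm. There were 2 SCL ChIP libraries and 2 input libraries of unenriched chromatin. All derive from 1 untreated ES cell line, no cells lacking SCL were compared here, and a list of peaks does not allow the FLK1+ label to be checked against marker expression. Peaks and their values come from the merged ChIP libraries against the merged inputs, so each peak has a single value and no replicate error, and no test between conditions was possible. Intervals given with the folds are 95% Poisson intervals on the ChIP fragments and cover counting error only.

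SCL is a basic helix-loop-helix (bHLH) transcription factor needed for blood formation. It binds DNA as a heterodimer with an E protein, a broadly expressed bHLH factor, and this pair contacts a short sequence called the E-box. LMO2 is a LIM-only protein that binds no DNA itself and bridges SCL to GATA factors, while LDB1 binds the LIM domains and can link complexes on distant elements through self-association. ID proteins have a helix-loop-helix domain but lack the basic DNA-binding region, and sequester E proteins. LMO4 is a further LIM-only protein and LDB2 a paralogue of LDB1.

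Of the 10 partner genes, 9 had at least 1 peak, against 28.9% of the 22380 protein-coding genes. Id2 and Id3 had 5 peaks each, a number reached by 2.1% of protein-coding genes. Lmo2 had 3 peaks. Lmo4, Ldb2, Tcf3 and Tcf4 had 2 each, Ldb1 and Tcf12 had 1 each, and Id1 had none. By family, the ID genes held 10 of the 23 peaks, the LMO genes 5, the E-protein genes 5 and the LDB genes 3. A count by nearest TSS grows with the distance to the neighbouring genes, which differs widely among these genes and is taken up with the peak density.

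The summit with 50 bases on either side is shown for the strongest peak of each gene but Tcf4, in the mm9 genome and on its plus strand. Capitals mark GATA motifs (AGATAA or AGATAG, and TGATAA or TGATAG), E-boxes (CANNTG) and the CTG and GATA of composite motifs, in which CTG is followed by GATA after 7 to 9 bases. Both strands were searched, so a GATA motif may read TTATCT and a composite may end in CAG. For the LIM-only and LDB genes, Lmo2 peak 3 is added because its central bases hold several E-boxes.
Lmo2 peak 1, chr2:103734054-103734154: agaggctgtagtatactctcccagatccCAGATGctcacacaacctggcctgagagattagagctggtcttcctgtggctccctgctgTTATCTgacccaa
Lmo2 peak 3, chr2:103771039-103771139: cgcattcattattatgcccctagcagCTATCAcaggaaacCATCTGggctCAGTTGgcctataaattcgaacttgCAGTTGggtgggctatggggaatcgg
Lmo4 peak 2, chr3:143908050-143908150: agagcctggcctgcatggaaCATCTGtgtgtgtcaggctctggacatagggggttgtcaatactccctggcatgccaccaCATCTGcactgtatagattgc
Ldb1 peak 1, chr19:46111735-46111835: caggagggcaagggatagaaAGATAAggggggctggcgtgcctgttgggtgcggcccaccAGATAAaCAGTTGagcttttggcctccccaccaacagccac
Ldb2 peak 2, chr5:45156382-45156482: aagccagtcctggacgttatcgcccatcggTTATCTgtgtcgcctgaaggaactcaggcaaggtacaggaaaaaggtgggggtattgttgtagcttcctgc

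Of the E-protein genes, both Tcf3 peaks are shown, since peak 1 was the only peak of the 23 within 1 kb of a TSS and peak 2 the stronger of the pair.
Tcf3 peak 1, chr10:79884649-79884749: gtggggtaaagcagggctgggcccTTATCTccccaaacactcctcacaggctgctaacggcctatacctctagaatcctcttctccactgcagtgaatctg
Tcf3 peak 2, chr10:79916511-79916611: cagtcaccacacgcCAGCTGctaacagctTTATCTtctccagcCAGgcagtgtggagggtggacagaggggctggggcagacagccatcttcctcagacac
Tcf12 peak 1, chr9:71721973-71722073: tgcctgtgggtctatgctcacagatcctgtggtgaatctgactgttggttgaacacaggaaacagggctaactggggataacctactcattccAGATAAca

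Of the ID genes, both Id2 peaks that tied as strongest are shown, with Id3 peak 4, the strongest of the ID genes, and Id3 peak 2, the runner-up, whose composite holds GATA outside the GATA motif searched.
Id2 peak 3, chr12:26152830-26152930: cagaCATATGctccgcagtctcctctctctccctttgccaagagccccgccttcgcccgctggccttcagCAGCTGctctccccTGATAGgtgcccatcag
Id2 peak 5, chr12:26418804-26418904: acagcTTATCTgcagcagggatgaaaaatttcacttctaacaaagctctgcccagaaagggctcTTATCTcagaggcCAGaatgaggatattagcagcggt
Id3 peak 2, chr4:135660678-135660778: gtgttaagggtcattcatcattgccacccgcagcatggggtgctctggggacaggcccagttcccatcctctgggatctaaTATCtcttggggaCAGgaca
Id3 peak 4, chr4:135683674-135683774: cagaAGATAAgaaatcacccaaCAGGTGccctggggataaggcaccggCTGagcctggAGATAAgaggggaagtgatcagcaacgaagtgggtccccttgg

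Enrichment near the partner genes spanned 6.09-fold to 179.7-fold over local background, with a median of 10.7. The median of all peaks was 11.1, and 11 of the 23 peaks lay above it. A fold of at least 10 was reached by 13 of the 23, against 56.6% of all peaks, and a fold of at least 100 by 1, against 1.67%. The median and the share at a fold of 10 lay close to those of the whole list. Behind these folds stood 25 to 1049 ChIP fragments at the summit, with a median of 44 against 53 over all peaks. The width of the called region ranged from 259 to 816 bp, with a median of 358 against 397. The local background was at the lowest level MACS2 allows, 2.43 fragments, in 8 of the 23, against 14.8% of all peaks. Median folds by family were 24.3 for LMO genes, 12.2 for LDB genes, 9.24 for E-protein genes and 9.10 for ID genes.

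**Figure D1:**
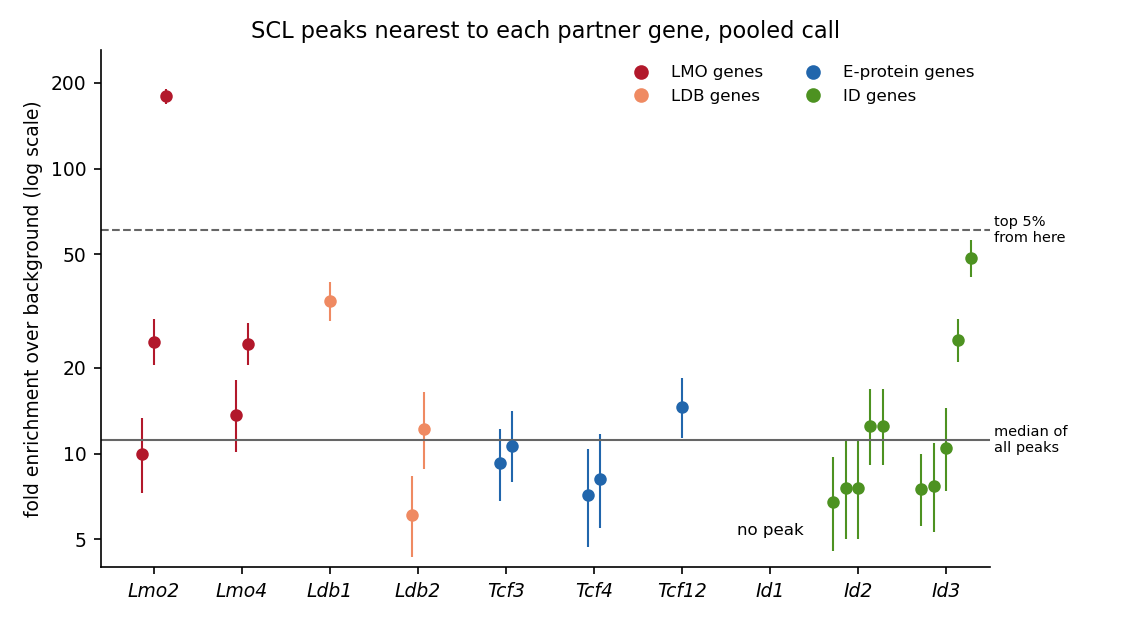
Fold enrichment of each SCL peak (points, log axis) with its 95% Poisson interval (bars, counting error only), by nearest partner gene. The solid line is the median of all peaks (11.1) and the dashed line the lower limit of the top 5% (61.1). Lmo2 peak 1 (179.7) is the only point above the dashed line, and Id1 has no peak.

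Ordered by their strongest peak, the genes ran Lmo2 (179.7), Id3 (48.6), Ldb1 (34.3), Lmo4 (24.3), Tcf12 (14.6), Id2 (12.5), Ldb2 (12.2), Tcf3 (10.7) and Tcf4 (8.15). The intervals of neighbours in this order did not overlap from Lmo2 down to Tcf12, although Ldb1 (29.2 to 40.0) came close to both Id3 (41.7 to 56.3) and Lmo4 (20.4 to 28.6). From Tcf12 (11.3 to 18.4) to Tcf4 (5.47 to 11.7) the intervals of neighbours overlapped, so these genes could not be ordered at this depth. All these intervals cover counting error only, so the order of the stronger genes was not tested across replicates. The strongest peak was also taken from 5 peaks for Id3 but from 1 for Ldb1.

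The strongest SCL peak of any partner gene lay upstream of Lmo2 (ENSMUSG00000032698.8, chromosome 2, plus strand). Peak 1 (chr2:103733842-103734514) was intergenic, with its summit 64.0 kb upstream of the TSS. It held 1049 ChIP fragments over a background of 4.84, a fold of 179.7 (169.0 to 190.9) and a −log10 p of 2001. It ranked 35 of all 12885 peaks and was the only one of the 23 in the top 5%. In the sequence above, its E-box is CAGATG, 17 to 22 bp before the summit, and its GATA motif lies 38 to 43 bp after it on the minus strand.

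Both other Lmo2 peaks were weaker. Peak 2 followed 61.7 kb upstream of the TSS with 44 fragments and a fold of 9.95 (7.29 to 13.3), and peak 3 lay 27.1 kb upstream with 118 fragments and a fold of 24.7 (20.5 to 29.6). No peak lay inside Lmo2 or within 10 kb of it. The noncoding processed transcript Gm13881 starts between peak 2 and peak 3, 18.1 kb from the summit of peak 1. With noncoding TSSs included, all 3 peaks were nearest to Gm13881 and Lmo2 had none.

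Lmo4 (ENSMUSG00000028266.11, chromosome 3, minus strand) had a peak on either side, both intergenic. Peak 2 (chr3:143907825-143908255) lay 39.9 kb upstream, with 139 fragments over a background of 4.77 and a fold of 24.3 (20.4 to 28.6). Peak 1 was 435.2 kb downstream, with 46 fragments and a fold of 13.7 (10.1 to 18.2). Peak 2 had a pair of CATCTG E-boxes, at 25 to 30 bp before and 30 to 35 bp after the summit, and no GATA motif.

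The single Ldb1 peak (chr19:46111584-46112078, gene ENSMUSG00000025223.8, minus strand) was in intron 1 of 10 of the longest coding transcript, 1.30 kb upstream of the nearest Ldb1 TSS. It held 159 fragments over a background of 3.67, a fold of 34.3 (29.2 to 40.0), and ranked 1628. The TSS used here starts a shorter transcript. Counted from the gene's outer start the summit was 7.92 kb downstream, and with only that start allowed the nearest gene became Pprc1, whose TSS is 7.59 kb away. It had 2 AGATAA motifs, and the one after the summit is separated from the E-box CAGTTG by 1 base, the shortest gap in the 9 windows that held both.

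Both Ldb2 peaks lay in introns of this long gene (ENSMUSG00000039706.6, chromosome 5, minus strand). Peak 2 (chr5:45156294-45156555), in intron 1 of 7 and 34.5 kb from the TSS, had 41 fragments over a background of 2.43 and a fold of 12.2 (8.86 to 16.5). Peak 1, in intron 2 and 224.0 kb from the TSS, had 37 fragments and a fold of 6.09 (4.34 to 8.33), the lowest of the 23. Both had a GATA motif and no E-box, and peak 1 also had a composite motif with a spacing of 8 bases.

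The peaks nearest to E-protein genes had folds from 7.14 to 14.6. Tcf3 (ENSMUSG00000020167.8, chromosome 10, minus strand) encodes E12 and E47, long-known partners of SCL. Tcf3 peak 1 (chr10:79884379-79884866) was 94 bp upstream of an internal Tcf3 TSS, in intron 3 of 18 of the longest coding transcript and 11.7 kb into the gene. It held 47 fragments over a background of 4.19 and a fold of 9.24 (6.84 to 12.2), and had a GATA motif and no E-box. Tcf3 peak 2 (chr10:79916385-79916693) lay 20.2 kb upstream with 48 fragments over a background of 3.59 and a fold of 10.7 (7.92 to 14.1). The intervals of this pair overlap. A further peak 42.0 kb upstream of the Tcf3 start, nearest to Onecut3, had a higher fold of 16.9. Peak 2 had an E-box, CAGCTG, 9 bases from a GATA motif, and a composite motif with a spacing of 9 bases on the minus strand.

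Tcf12 encodes the E protein HEB. Its only peak (chr9:71721685-71722348, gene ENSMUSG00000032228.8, minus strand) lay in intron 13 of 20, 21.9 kb downstream of an internal TSS and 237.6 kb from the outer start, with 67 fragments over a background of 3.67. Its fold of 14.6 (11.3 to 18.4) was the highest of the E-protein genes. With the outer start as the only TSS it was no longer nearest to Tcf12.

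Tcf4 encodes the E protein E2-2. Its peaks had the lowest folds of the E-protein genes, within intervals that overlap those of Tcf3, with 27 fragments and a fold of 8.15 (5.47 to 11.7) for peak 1, intergenic and 143.7 kb upstream, and 25 fragments and a fold of 7.14 (4.72 to 10.4) for peak 2, in intron 3 of 19. The background was 2.43 and 2.64 fragments. Peak 2 had a GATA motif, an E-box and a composite motif, and peak 1 had none of these.

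Id3 had 5 peaks in a short stretch of genome. All lay upstream of the gene (ENSMUSG00000007872.3, chromosome 4, plus strand), between 3.04 and 43.7 kb from the TSS and outside any protein-coding gene. The strongest was peak 4 (chr4:135683585-135684022), 15.7 kb upstream, with 175 fragments over a background of 2.62, a fold of 48.6 (41.7 to 56.3) and rank 991. Peak 2 (chr4:135660371-135661186), 38.7 kb upstream, had 129 fragments and a fold of 25.0 (20.9 to 29.7) and was the widest of the 23 at 816 bp. Peaks 1, 3 and 5 had folds of 7.72, 10.5 and 7.53, and peak 5 was the nearest to the TSS. In peak 4 a composite motif with a spacing of 8 bases spanned the summit, from 2 bp before it to 12 bp after it.

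Id2 also had 5 peaks, all upstream of the gene (ENSMUSG00000020644.8, chromosome 12, minus strand), but spread over a gene-poor region with 2.89, 144.3, 371.9, 520.2 and 637.9 kb to the TSS. Their folds were 7.57, 6.76, 12.5, 7.57 and 12.5 in that order. Peak 3 (chr12:26152724-26153146) and peak 5 (chr12:26418642-26418999) tied as strongest, each with 42 fragments over the lowest background and an interval of 9.11 to 16.8. The weakest had an interval of 4.54 to 9.72, which overlaps theirs. The 3 most distant peaks each had a composite motif, with spacings of 9, 9 and 8 bases, and the pair nearest to the gene had neither a composite nor a GATA motif. Peak 1, 2.89 kb from the TSS, had an E-box and peak 2 none.

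Id1 (ENSMUSG00000042745.9, chromosome 2, plus strand) had no peak by nearest TSS, yet SCL peaks were not absent from its surroundings. Within 100 kb of its TSS lay 6 peaks, nearest to a TSS of H13, Cox4i2 or Bcl2l1. The strongest (chr2:152614208-152615732) was 53.0 kb downstream of the Id1 TSS, within the body of Bcl2l1 but nearest to the Cox4i2 TSS, with 438 fragments and a fold of 62.6. By the same distance, Id3 had 7 peaks, of which those at 18.9 and 34.7 kb downstream were nearest to E2f2 and had folds of 6.93 and 15.2.

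**Figure D2:**
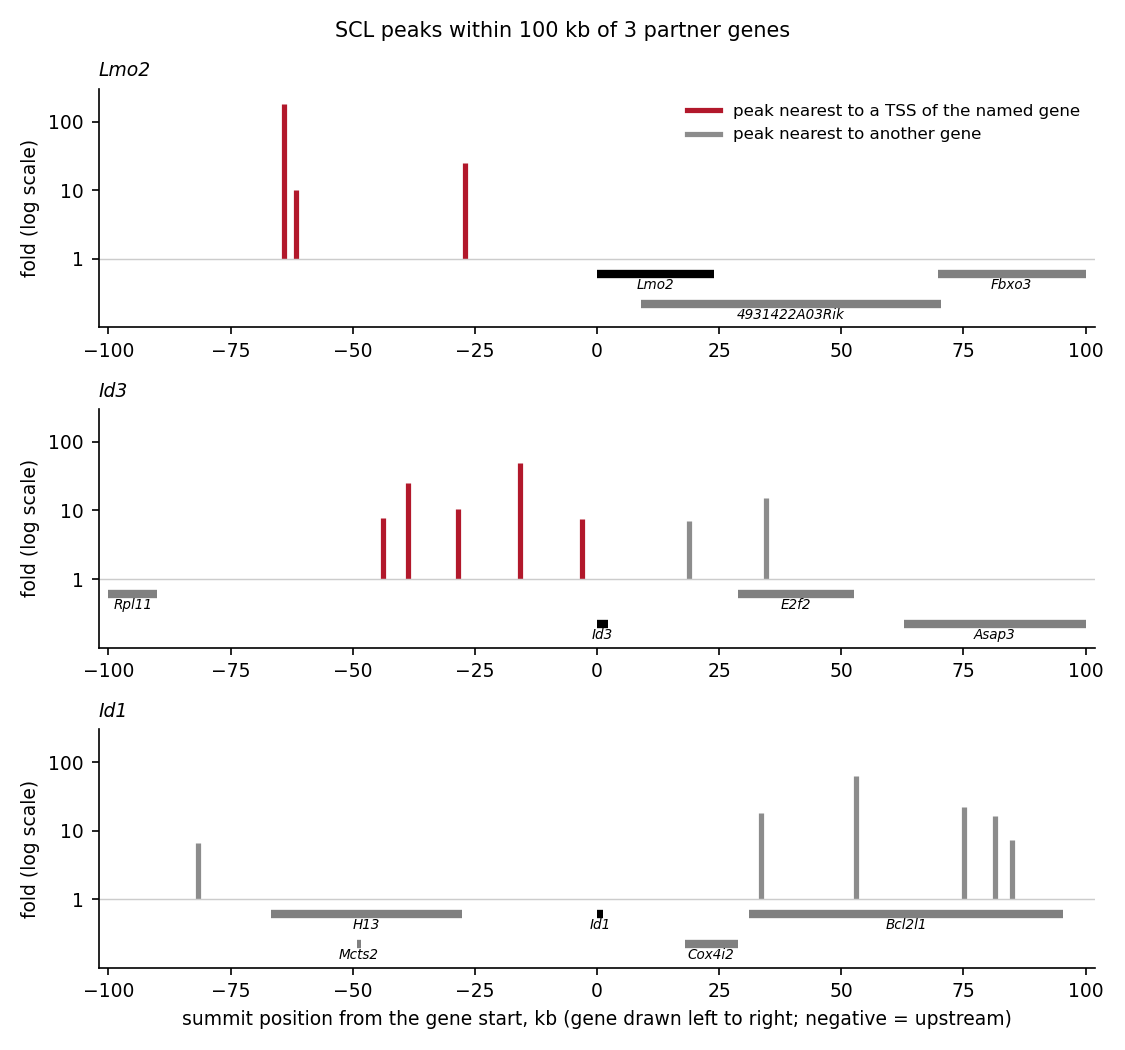
SCL peaks within 100 kb of the start of Lmo2, Id3 and Id1, each gene drawn from left to right. Bar height is the fold (log axis), red bars are peaks nearest to the named gene, grey bars peaks nearest to another gene, and horizontal bars are protein-coding genes. The 3 Lmo2 and 5 Id3 peaks all lie upstream, and the 6 peaks around Id1 all belong to other genes by nearest TSS.

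Distances from the summit to the nearest TSS ran from 94 bp for Tcf3 peak 1 to 637.9 kb for Id2 peak 5. Within 1 kb of a TSS lay 1 of the 23, against 7.59% of all peaks, and 4 lay within 5 kb, against 20.7%. Beyond 100 kb lay 7, against 18.5% of all peaks, and 4 of these were Id2 peaks. The median distance was 38.7 kb against 24.1 kb over all peaks. The summit was upstream of the nearest TSS in 18 of the 23, against 48.9% of all peaks, and the 10 ID peaks were among them. In an intron lay 6, each in its own gene, against 42.4% of all peaks, and the other 17 were intergenic, against 54.1%. These counts rest on few genes, because peaks of 1 gene share its surroundings.

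**Figure D3:**
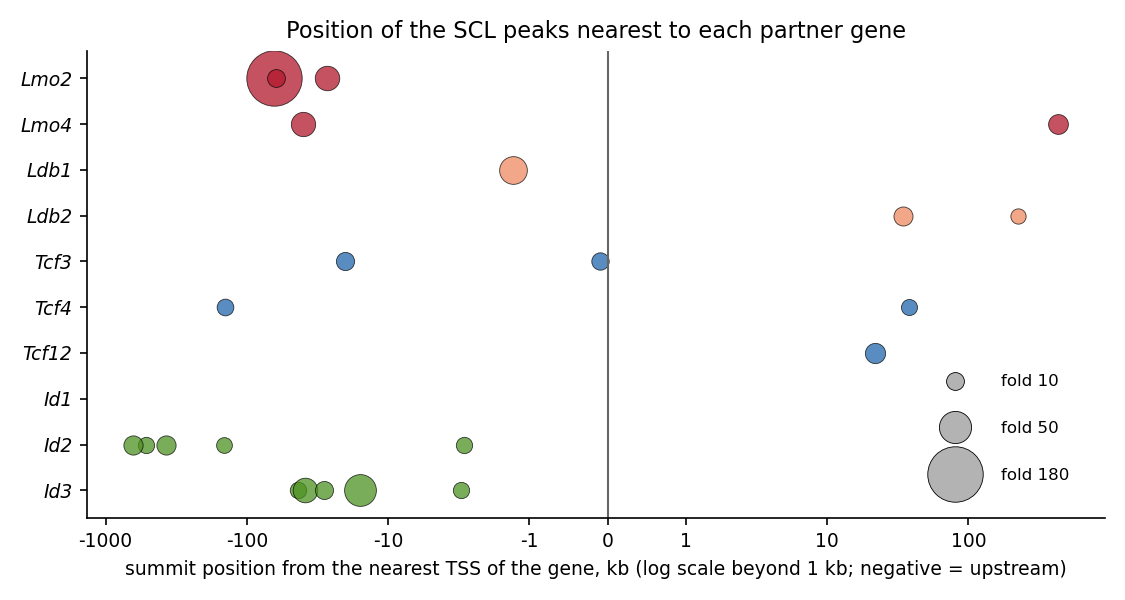
Distance of each SCL summit from the nearest TSS of its partner gene, in kb (log scale beyond 1 kb, negative values upstream). Larger discs mark larger folds, and colours mark the families as in the plot of folds by gene. The 5 Id2 peaks extend to 637.9 kb upstream, and the largest disc is the Lmo2 peak at 64.0 kb upstream.

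Peak density put the counts on a common scale. The stretch of genome closer to a TSS of the gene than to that of any other protein-coding gene ranged from 29.1 kb for Ldb1 to 808.9 kb for Lmo4. Per Mb of this span, Id3 had 83.0 peaks (27.0 to 193.8), Tcf3 37.7 (4.56 to 136.0), Ldb1 34.4 (0.871 to 191.8) and Lmo2 24.7 (5.09 to 72.1). Id2 had 6.94 (2.25 to 16.2), Ldb2 5.41, Tcf12 4.96, Tcf4 3.05 and Lmo4 2.47. The genome as a whole had 4.85. Over the 3.05 Mb of all partner genes, Id1 included, the density was 7.53 (4.78 to 11.3). These intervals treat peaks as independent of each other, whereas peaks were clustered, with a mean of 0.576 peaks per protein-coding gene and up to 21 at 1 gene. The intervals are therefore too narrow, and none was used to set a gene apart from the genome value. Id2 had as many peaks as Id3, in a span of 720.2 kb against 60.2 kb. For Id1, 0 peaks in 31.2 kb allowed up to 118.4 peaks per Mb, a range that includes the genome value.

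**Figure D4:**
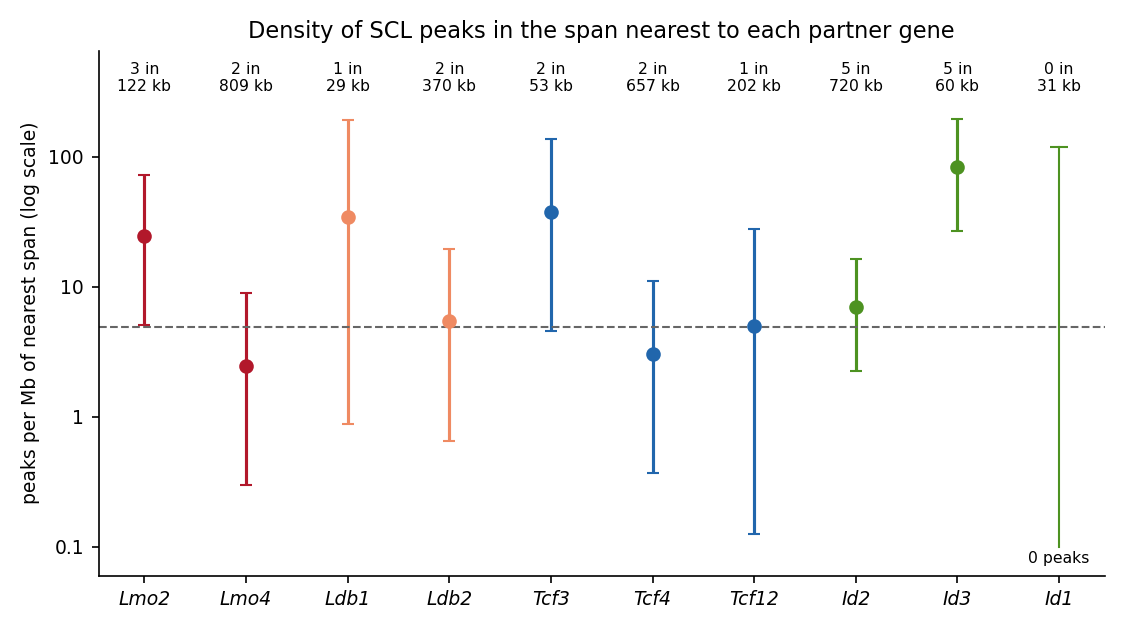
Peaks per Mb of the span nearest to each gene (points, log axis) with exact Poisson 95% intervals (bars), and the number of peaks and the span above each gene. The dashed line is the genome value of 4.85. Id3 has the highest value (83.0) and Lmo4 the lowest above 0 (2.47). The intervals take peaks as independent, and for Id1, with 0 peaks, the bar shows the upper limit.

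Within 50 bp of the summit, the motifs of the SCL complex had shares near partner genes that lay close to those of the whole list. A GATA motif was present in 17 of the 23 (73.9%, 95% Wilson interval 53.5 to 87.5), against 73.2% of all peaks. An E-box was present in 12 (52.2%, 33.0 to 70.8) against 52.6%, and both together in 9 against 37.8%. The composite motif was present in 8 (34.8%, 18.8 to 55.1) against 32.9%. The ETS motif AGGAA, recognised by ETS factors, was present in 11 (47.8%, 29.2 to 67.0) against 51.9%. The Wilson intervals take the peaks as independent, although Id2 and Id3 had 5 peaks each, and may be too narrow. In windows of the same length 1 kb to either side of all summits, the shares were 17.8% for GATA, 42.4% for the E-box, 3.07% for the composite and 33.1% for ETS.

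**Figure D5:**
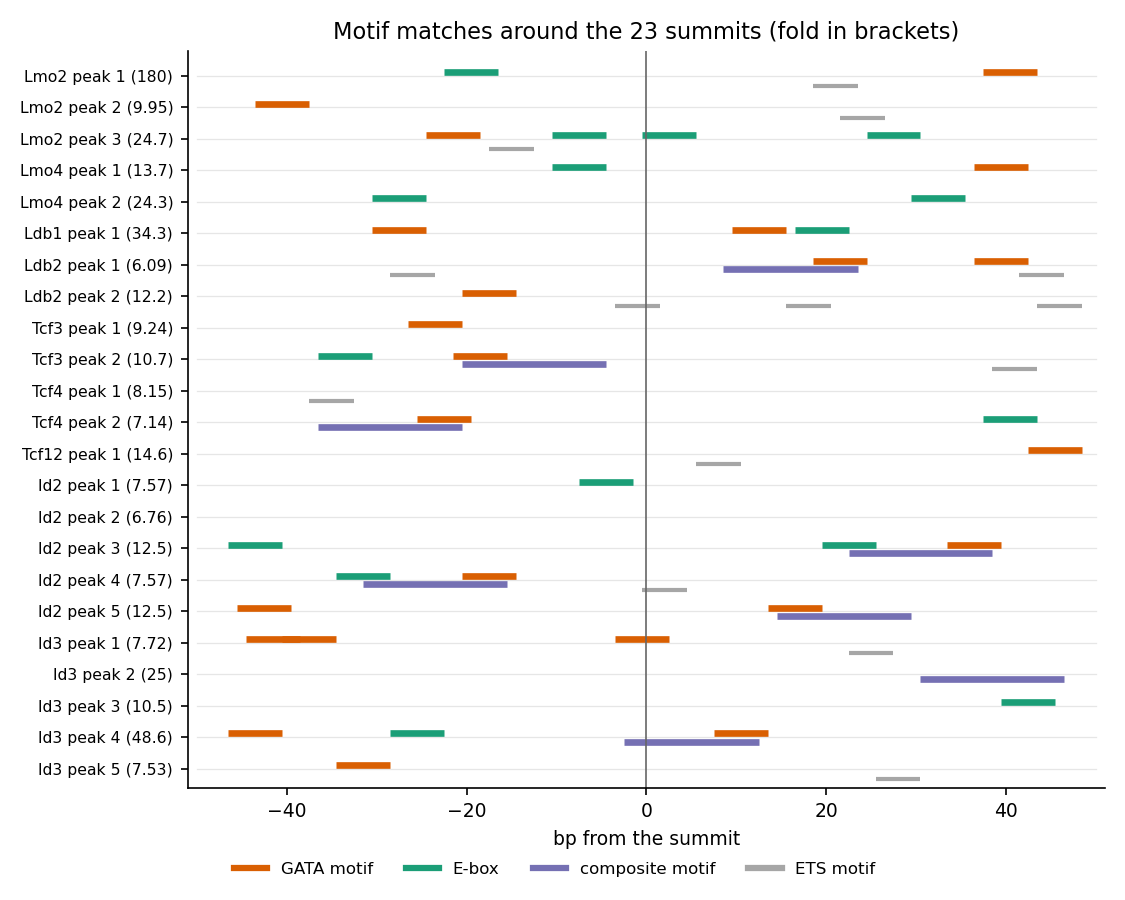
Motif matches within 50 bp of the 23 summits (horizontal axis in bp, 0 at the summit), 1 row per peak with its fold in brackets. Orange marks GATA motifs, green E-boxes, purple composites and grey ETS motifs. Composites appear in 5 ID rows, 2 E-protein rows and 1 LDB row and in no LMO row, against a share of 32.9% over all peaks. Id2 peak 2 has no match.

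The motifs were also counted by family, with no test, since each family has few peaks. None of the 5 LMO peaks had a composite motif, while 5 of the 10 ID peaks, 2 of the 5 E-protein peaks and 1 of the 3 LDB peaks had one. E-boxes with the core GA (CAGATG, or CATCTG on the other strand) occurred in 4 of the 5 LMO peaks and in 1 ID peak, which makes 5 of the 23 against 19.6% of all peaks. This core was singled out after the matches had been seen. At the strongest peak, Lmo2 peak 1, the GATA motif and the E-box were 54 bases apart, and at the second strongest, Id3 peak 4, the summit lay within a composite.

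Of 14 other genes of the complex, of its cofactors or related to these by family or name, 9 had a peak and together held 38. Over all protein-coding genes, 28.9% had a peak. Their median fold was 15.8, against 11.1 over all peaks. Cbfa2t3, which encodes the corepressor ETO2, had 13 peaks and a highest fold of 236.6. Tal1, the gene of SCL itself, had 4 (127.4), and the genes of the GATA factors that join SCL in blood cells, Gata1 and Gata2, had 4 (142.7) and 5 (41.8). The related bHLH genes Lyl1 and Tal2 had 2 peaks each, with highest folds of 293.9 and 90.0. Ssbp3 and Ssbp2, whose products stabilise LDB1, had 6 (16.4) and 1 (9.17), and Id4 had 1 (16.6). No peak was nearest to Lmo1, Lmo3, Ssbp4, Rlim, which encodes a ubiquitin ligase for LIM cofactors, or Ssbp1, which encodes a mitochondrial protein. Of the 38 peaks, 6 reached a fold of 100, against 1.67% of all peaks. Among these 6 were Cbfa2t3 peaks with folds of 236.6, 195.6 and 120.7. The rest were the strongest peaks of Tal1, Lyl1 and Gata1. The peak with the highest fold of the whole list, 392.6, lay 55.1 kb downstream of the Lmo1 TSS and was nearest to Ric3. Stronger peaks than those counted also lay within 100 kb of Tal1 (283.3-fold, nearest to Pdzk1ip1) and Gata2 (145.2-fold, nearest to Dnajb8).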

How the data were processed

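SCL binding was measured by ChIP sequencing in 2 ChIP and 2 input libraries, grouped by the sample labels, which do not say whether the libraries came from separate differentiations. The authors aligned reads to mm9 with Bowtie 1.1.2 and called peaks with MACS2 2.0.10, according to the submitters' processing notes and the methods. The methods state that replicates were merged and that peaks were called with the irreproducible discovery rate (IDR), which uses the ranking of peaks in replicates. Agreement between replicates may thus have helped to choose the peaks. The deposited list holds values of the merged libraries only, and it does not state how deeply the libraries were sequenced. This list is longer than the set of SCL-bound loci that the paper reports. Shares, ranks and densities given here refer to the whole deposited list. The fold enrichment is a ratio deposited by the authors, the −log10 p and −log10 q are the authors' MACS2 values, and the deposited score equalled 10 times the −log10 p, without decimals, in 100% of peaks and was not used. The summit offset in the deposited list gave each summit.

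The fold, (pileup + 1) / (background + 1), and the Poisson p were solved for the pileup, a whole number of fragments, and the local background. The solved values gave the deposited −log10 p to within 0.001 in 99.9% of peaks. On simulated peaks, 400 of 400 were recovered. Sequence came from the NCBIM37 genome (mm9) and gene models from GENCODE vM1. Each summit was assigned to the nearest TSS of any transcript of a protein-coding gene. Coordinates count from 1. Python 3.11.15, numpy 2.4.6, scipy 1.17.1 and pysam 0.24.0 were used. No test was made, because peaks of 1 pooled list are not replicates. For each gene, the strongest peak, peaks within 1 kb of a TSS and peaks in the top 5% by fold were described in full. The genes, lists and motifs were chosen with earlier results of these data known. Alternatives were a fold of at least 10, a −log10 q of at least 50, other TSS sets, the middle of the peak, a limit of 10 kb around the gene or 100 kb to the TSS, merging within 500 bp, a motif window of 100 bp on each side, and 5 kb as the promoter distance.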

Additional observations from a re-analysis of the deposited data

How the results depend on the processing

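Of 67 alternative values, 57 moved by less than the interval or margin set for them, and 22 of these equalled the main value exactly. Shifts counted as small could still be sizeable with so few peaks. The number of peaks was 16 with the nearest TSS within 100 kb. The E-box share was 69.2% with a fold of at least 10 and 37.5% within the gene or 10 kb of it. The number of peaks fell from 23 to 13 with a fold of at least 10, to 7 with a −log10 q of at least 50 and to 8 within the gene or 10 kb of it. At that −log10 q, 5 genes had a peak, the median fold was 25.0 and the E-box share 71.4%. The GATA share was 87.5% within the gene or 10 kb of it. The share within 1 kb of a TSS, which rests on Tcf3 peak 1 alone, was 0% with a fold of at least 10, with a −log10 q of at least 50 and with 1 TSS per gene. Filters and distance limits leave fewer peaks by construction, whereas with 1 TSS per gene Tcf3 peak 1 stayed with Tcf3 but was 11.7 kb from its outer start. Noncoding TSSs took all 3 Lmo2 peaks from Lmo2 and left 20 of the 23, and 1 TSS per gene left 21, without the Ldb1 and Tcf12 peaks. No paired analysis was possible because both ChIP libraries were merged for the call, and no library could be left out either. At 25 fragments, the lowest pileup of the 23, the interval of a fold ran from 4.72 to 10.4 for Tcf4 peak 2, so differences among weak peaks were not resolved.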
